A study of Homo sapiens with 36 samples.

Results

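The 2 double siRNA states compared here are U2OS cells, a human osteosarcoma line, carrying a stable glucocorticoid receptor alpha (GR) transgene, transfected either with siRNA against BRM and Hic-5 together (siBRMsiHic5) or with siRNA against CHD9 and Hic-5 together (libraries labelled siCHD9siHic5). Each state was represented by 6 libraries, 3 with 8 h of 100 nM dexamethasone (dex) and 3 with ethanol vehicle, starting 48 h after transfection, so that 12 of the 36 libraries of the series form the comparison. The rule that sets the members uses siRNA labels alone and no measured value, but it was chosen with earlier results of these data known. The other libraries used beside them carried 1 targeting siRNA with the non-silencing one (siBRMsiNS, siCHD9siNS, siHic5siNS) or the non-silencing siRNA alone (siNSsiNS), with the same 2 hormone treatments. The labels place the 3 biological replicates of each group on different days and name 1 transfected line. All cells therefore shared the GR transgene, and both double states also shared the Hic-5 siRNA. The comparison asks what separates siRNA against one remodeler from siRNA against another when Hic-5 siRNA is present in both.

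BRM, encoded by SMARCA2, is one of the alternative ATPase subunits of SWI/SNF complexes, which use ATP to slide or evict nucleosomes; the other is BRG1, encoded by SMARCA4. CHD9 belongs to the chromodomain helicase DNA-binding family of remodelers. Hic-5, encoded by TGFB1I1, is a LIM-domain adaptor of the paxillin family that sits at focal adhesions and also acts in the nucleus as a cofactor of steroid receptors, where it has been described as blocking GR at a subset of genes. GR is the ligand-activated transcription factor through which dexamethasone acts.

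The 12 libraries held 27.93 to 45.95 M counts. A culture here means the vehicle and dex libraries with the same condition and replicate number. This grouping rests on the sample titles, which name no culture. Pearson correlations of log2 levels across genes were 0.98 to 0.991 between different siBRMsiHic5 cultures and 0.983 to 0.994 between different cultures labelled siCHD9siHic5, against 0.934 to 0.96 between the 2 states. The share of counts on RNA28S5, a 28S ribosomal RNA gene, was 0.511 to 5.76% in siBRMsiHic5 libraries, with replicates 2 and 3 high, and 0.406 to 0.716% in libraries labelled siCHD9siHic5. The part of ribosomal RNA carry-over in the results was not tested, and several counts below are also given for cultures in which that share stayed under 1%. This leaves 1 siBRMsiHic5 culture and 1 siBRMsiNS culture, each assumed to vary like the others. Summed mesenchymal bone tumour markers of U2OS cells reached 3740 to 5600 CPM in siBRMsiHic5 libraries and 5010 to 6010 CPM in those labelled siCHD9siHic5, and 9 of 9 markers in the table averaged above 1 CPM in both. Epithelial marker sums were 421 to 613 CPM and 229 to 346 CPM in the same order of states, and endothelial sums 11.7 to 19 CPM and 2.65 to 4.97 CPM. Of 7 endothelial markers 5 were called higher in siBRMsiHic5 and 0 lower, with VWF averaging 4.99 CPM in siBRMsiHic5 and 0.691 CPM in libraries labelled siCHD9siHic5, and PECAM1 2.67 CPM and 0.413 CPM in the same order. CDH5, at 0.336 CPM and 0.28 CPM, and ESAM were not called. Of 7 epithelial markers 3 were higher and 0 lower. Of 3 leukocyte markers measured 2 were higher and 0 lower, and their sums were 15.4 to 23.4 CPM in siBRMsiHic5 and 7.03 to 10.7 CPM in libraries labelled siCHD9siHic5. Beside these marker counts, 28.7% of all tested genes were called higher and 22.5% lower. The part of other cell types in the results was not tested.

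The transcripts of the siRNA targets were measured first. SMARCA2 stood at 8.98, 9.63 and 8.44 CPM with dex and 8.36, 8.52 and 5.79 CPM with vehicle in siBRMsiHic5 libraries, and at 35.3, 30.5 and 39.3 CPM with dex and 35.2, 34.8 and 36.8 CPM with vehicle in libraries labelled siCHD9siHic5. Every siBRMsiHic5 library was below every library of the other state. SMARCA2 fell by 2.1 ± 0.16 on the log2 scale (edgeR quasi-likelihood test on culture sums, adjusted p = 1.1e-07). Throughout, ± is the SE for values on the log2 scale and the SD over cultures for CPM. CHD9 ran against its label. Its transcript reached 142, 100 and 114 CPM with dex and 143, 110 and 116 CPM with vehicle in the libraries labelled siCHD9siHic5, whereas siBRMsiHic5 libraries held 48.6, 57.6 and 59.3 CPM with dex and 42.0, 51.6 and 42.1 CPM with vehicle. The libraries labelled siCHD9siHic5 also lay above siHic5siNS (47.5 to 78.0 CPM) and above siNSsiNS (78.1 to 97.4 CPM), and the log2 difference from siHic5siNS was 0.87. In the libraries labelled siCHD9siNS, CHD9 was at 51.5 to 89.2 CPM. The mRNA data therefore do not show a lower CHD9 transcript in the libraries labelled siCHD9siHic5, and every direction below is a difference between the labelled states and is not assigned to loss of CHD9. CHD9 protein is not analysed here.

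Hic-5 siRNA was shared by both states. TGFB1I1 averaged 5.22 ± 0.41 CPM in siBRMsiHic5 and 7.41 ± 1.34 CPM in libraries labelled siCHD9siHic5 (SD over cultures, n = 3 each), and siNSsiNS libraries held 27.9 to 30.4 CPM. The log2 difference between the double states was -0.51 ± 0.22 (edgeR, adjusted p = 0.057). It passed the threshold under 8 of 18 alternative settings. SMARCA4 averaged 83.7 ± 15.5 CPM in siBRMsiHic5 and 129 ± 2.6 CPM in libraries labelled siCHD9siHic5, without overlap, a fall of 0.62 ± 0.13 on the log2 scale (edgeR, adjusted p = 0.00073). NR3C1, which encodes GR, differed by -0.12 ± 0.13 (edgeR, adjusted p = 0.47).

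**Figure D1:**
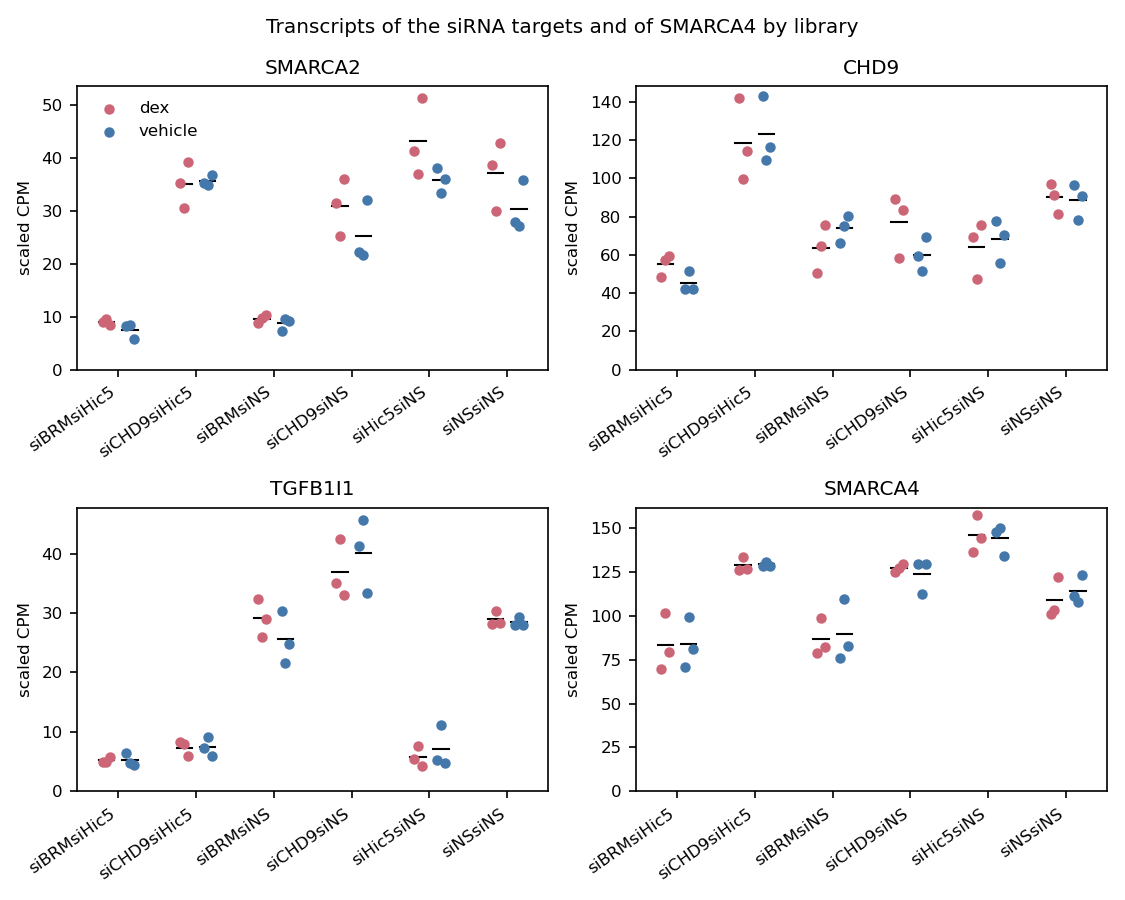
Upper-quartile scaled CPM of SMARCA2, CHD9, TGFB1I1 and SMARCA4 (y axes) in each of the 36 libraries, by siRNA condition (x axes) and treatment (colours); bars are means over 3 libraries. CHD9 sits between 99.9 and 143 CPM in the libraries labelled siCHD9siHic5, above all other conditions, and SMARCA2 is at most 10.4 CPM in both BRM siRNA conditions.

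Over both hormone treatments, 7778 of 15179 tested genes, 51.2%, differed between the double states (edgeR on culture sums, Benjamini-Hochberg adjusted p under 0.05), 4359 of them higher and 3419 lower in siBRMsiHic5, which is 28.7% and 22.5% of the genes tested. The median log2 difference over all tested genes was 0.06, and correcting for transcript length and GC moved it to -0.04, with 3693 genes higher and 4184 lower. A 2-fold minimum left 1904 genes higher and 944 lower. By transcript length, the median difference ran from 0.19 in the quintile of shortest transcripts to -0.10 in that of the longest. Vehicle and dex libraries with the same condition and replicate number deviated together, so their counts were summed. The alternative called hormone as a covariate fits single libraries as 12 group means and averages the vehicle and dex differences. It has no single hormone term, and it leaves the pairing within cultures unused. With hormone as a covariate over single libraries the count was 9695, and with cultures under 1% ribosomal share only it was 6643, 3767 higher and 2876 lower. The 6 and 6 libraries did not overlap in 44.4% of tested genes, 24.6% higher and 19.8% lower in siBRMsiHic5. Set against siHic5siNS, which both comparisons share, 7451 genes (49.1%) differed in siBRMsiHic5 and 7495 (49.4%) in the libraries labelled siCHD9siHic5. In bulk RNA, fewer cells of a type and less RNA per cell cannot be told apart.

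Among the 12 genes with the largest rises were secreted and membrane proteins. IL24, a cytokine of the interleukin-10 family, had 13.1, 10.5 and 14.4 CPM with dex and 22.7, 14 and 27.1 CPM with vehicle in siBRMsiHic5. In the libraries labelled siCHD9siHic5 it had 0.0589, 0.125 and 0.132 CPM with dex and 0.0289, 0.311 and 0.0432 CPM with vehicle, 25 counts in all 6. IL24 thus differed by 7.21 ± 0.75 on the log2 scale (edgeR, adjusted p = 1.7e-06). The siHic5siNS libraries held 3.33 to 15.5 CPM of it, so that its log2 difference from siHic5siNS was 0.89 in siBRMsiHic5 and -6.32 in the libraries labelled siCHD9siHic5. PTGES, the inducible prostaglandin E synthase, averaged 2.93 ± 1.26 CPM in siBRMsiHic5 and 0.0355 ± 0.0215 CPM, 8 counts over 6 libraries, in those labelled siCHD9siHic5. TRPV2, a cation channel, had 2.71 to 11.2 CPM in siBRMsiHic5 and 0.0578 to 0.187 CPM in libraries labelled siCHD9siHic5. UCA1, a long non-coding RNA, had 15.5 to 82.9 CPM in siBRMsiHic5 and 0.52 to 1.28 CPM in libraries labelled siCHD9siHic5. LRRC32, which anchors latent TGF-beta at the cell surface, averaged 14.3 ± 3.96 CPM and 0.475 ± 0.217 CPM in the same order of states. The other rises of this set were CAPN6, a calpain that lacks protease activity (5.76), HTR3A, a subunit of the serotonin-gated channel (5.23), DHRS9, a retinol dehydrogenase (5.25), RAB7B, a small GTPase of endosomal traffic (4.81), BPIFB4 (5.39) and PRR9 (4.90), with log2 differences in brackets. CES1P2 (6.35) is a carboxylesterase pseudogene, and reads of its parent family may be counted there.

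The largest fall was in ZNF469, a zinc finger gene mutated in brittle cornea syndrome. It stood at 1.36, 2.28 and 3.08 CPM with dex and 2.37, 1.94 and 2.15 CPM with vehicle in siBRMsiHic5, and at 120, 126 and 86.8 CPM with dex and 83.1, 105 and 68.1 CPM with vehicle in libraries labelled siCHD9siHic5. The fall was 5.49 ± 0.32 on the log2 scale (edgeR, adjusted p = 1.1e-08), and siHic5siNS libraries at 24.3 to 36.6 CPM lay between the states. C1QL1, a secreted C1q-like protein, averaged 20.7 ± 10.5 CPM in siBRMsiHic5 and 223 ± 33 CPM in libraries labelled siCHD9siHic5. F5, coagulation factor V, averaged 1.37 ± 0.15 CPM in siBRMsiHic5 and 26.3 ± 6.0 CPM in the libraries labelled siCHD9siHic5. TREM2, a receptor of myeloid cells, had 0.137 to 0.474 CPM in siBRMsiHic5 and 5.66 to 8.27 CPM in libraries labelled siCHD9siHic5, against 0.0284 to 0.352 CPM in siHic5siNS. CLCA2 (-3.93), a calcium-activated chloride channel regulator, PADI4 (-3.96), a peptidylarginine deiminase, CARNS1 (-4.10), the carnosine synthase, and the mucin gene MUC19 (-3.75) were in the same set. Reads of further members can be split between close paralogs, namely LCE1C (-5.40) and LCE1B (-5.09) of the cornified envelope and LGALS7B (-4.75), a galectin. EGR2 (-3.48), an immediate early transcription factor, was at 51.6 CPM in 1 vehicle library labelled siCHD9siHic5 and at 7.32 to 11.9 CPM in the other 5, and with cultures under 1% ribosomal share only its adjusted p was 0.084 (edgeR).

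**Figure D2:**
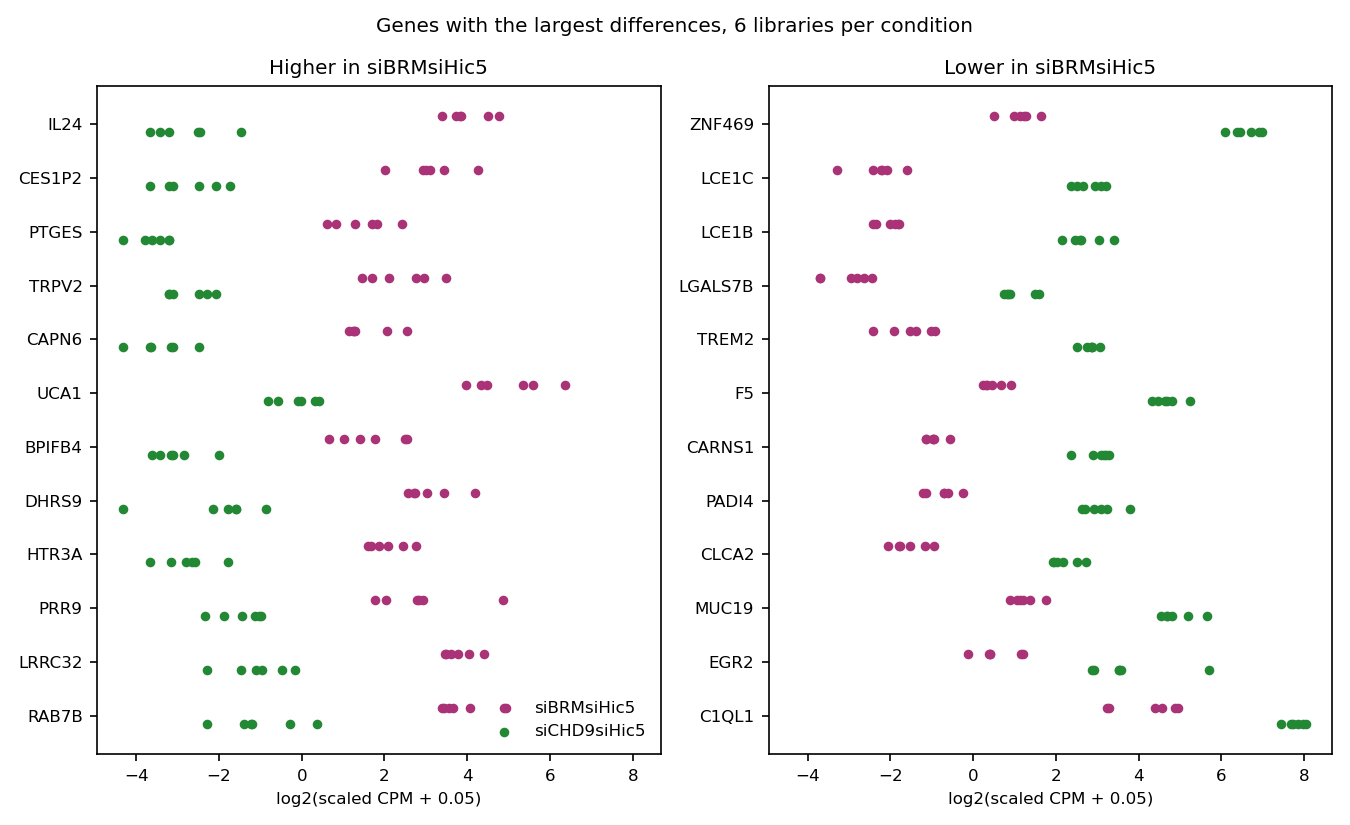
Scaled CPM on a log2 scale with 0.05 added (x axes) of the 12 genes with the largest rises (left) and falls (right) in the 6 siBRMsiHic5 libraries and the 6 libraries labelled siCHD9siHic5; each point is a library. The 2 states do not overlap in any of these genes, which the rule for naming them required, from IL24 (7.21) down to RAB7B (4.81) and from ZNF469 (-5.49) up to C1QL1 (-3.42).

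Promoter sequence is shown for genes of both directions and for the DNA replication gene with the smallest p, to set the leading genes beside known transcription factor motifs. Sequences are the 250 bases before the RefSeq gene start (GRCh38.p14), read on the gene's strand, for RAB7B (chr1:206003396-206003645, minus strand), CAPN6 (chrX:111270484-111270733, minus strand), CLCA2 (chr1:86423921-86424170, plus strand) and LIG1 (chr19:48170345-48170594, minus strand). Motif letters found on either strand are in capitals, and those marked do not overlap one another.
RAB7B: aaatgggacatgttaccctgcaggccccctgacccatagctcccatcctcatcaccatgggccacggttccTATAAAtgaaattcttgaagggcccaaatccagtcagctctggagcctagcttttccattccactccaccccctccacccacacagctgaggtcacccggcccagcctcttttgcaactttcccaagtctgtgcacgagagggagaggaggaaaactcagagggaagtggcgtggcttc
CAPN6: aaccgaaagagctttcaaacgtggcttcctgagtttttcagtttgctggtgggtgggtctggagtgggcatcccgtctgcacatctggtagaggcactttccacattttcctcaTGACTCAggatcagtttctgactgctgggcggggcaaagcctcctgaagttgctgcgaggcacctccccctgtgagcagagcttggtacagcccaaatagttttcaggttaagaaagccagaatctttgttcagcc
CLCA2: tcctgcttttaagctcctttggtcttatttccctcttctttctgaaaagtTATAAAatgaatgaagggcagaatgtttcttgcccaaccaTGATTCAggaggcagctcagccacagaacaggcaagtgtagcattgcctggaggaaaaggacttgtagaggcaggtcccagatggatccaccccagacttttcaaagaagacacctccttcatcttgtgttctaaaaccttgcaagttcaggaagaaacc
LIG1: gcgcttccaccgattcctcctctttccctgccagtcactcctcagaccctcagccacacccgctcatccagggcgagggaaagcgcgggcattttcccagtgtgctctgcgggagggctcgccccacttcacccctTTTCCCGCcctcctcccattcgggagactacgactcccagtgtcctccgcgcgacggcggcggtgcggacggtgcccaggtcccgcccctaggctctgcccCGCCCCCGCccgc

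RAB7B holds the letters TATAAA from -179 to -174 relative to the start, CAPN6 an AP-1 motif (TGANTCA) from -136 to -130, CLCA2 the AP-1 letters from -160 to -154 and TATAAA from -200 to -195, and LIG1 an E2F motif (TTTNNCGC) and an EGR motif (GCGNGGGCG). The windows of LCE1C, SESN1 and IDI1 held none of the 7 motifs searched, which also included CCAAT, the cyclic AMP element TGACGTCA and a sterol element (TCACNCCAC). Among the 11787 tested genes with a promoter entry, 4.37% hold the AP-1 letters, compared with 8.53% of 1383 genes higher by 2-fold or more and 5.08% of 709 genes lower by 2-fold or more. TATAAA is in 5.98% of the tested genes' windows, in 8.60% of those higher and in 8.46% of those lower. These shares describe letters in a window and are not evidence of binding.

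Genes of cell division moved mostly one way. Of 30 mitotic genes, 17 rose and 0 fell (15 and 1 with TMM factors or DESeq2, 12 and 1 after correction for length and GC), with a median log2 difference of 0.49, against 28.7% of all tested genes rising. BIRC5, which encodes the chromosomal passenger protein survivin, had 146 to 200 CPM in siBRMsiHic5 and 56.2 to 90.8 CPM in libraries labelled siCHD9siHic5, a rise of 1.28 ± 0.16 (edgeR, adjusted p = 1.3e-05). TOP2A, the topoisomerase that untangles sister chromatids, had 405 to 552 CPM and 241 to 384 CPM in the same order. AURKA, a spindle kinase, rose by 1.04 and ECT2, an activator of cytokinesis, by 0.70. MKI67 differed by -0.09 and PLK1 by -0.54, neither called. Without siBRMsiHic5 replicate 2 the mitotic count was 11 higher and 1 lower, and without siCHD9siHic5 replicate 1 it was 9 higher and 1 lower. In siBRMsiNS against libraries labelled siCHD9siNS, 3 mitotic genes were higher and 0 lower, where 17.3% of all tested genes were higher and 11.6% lower.

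Of 36 DNA replication genes, 20 rose and 4 fell, with a median of 0.70, against 28.7% of all tested genes rising and 22.5% falling. RFC5, a subunit of the clamp loader, had 31.1 to 40.3 CPM in siBRMsiHic5 and 8.52 to 16.5 CPM in libraries labelled siCHD9siHic5, a rise of 1.57 ± 0.21 (edgeR, adjusted p = 1.7e-05). The DNA ligase gene LIG1 averaged 91.9 ± 3.8 CPM and 55.8 ± 3.9 CPM in the same order, and ORC6 of the origin recognition complex rose by 0.74. CDC6, which loads the replicative helicase, rose by 1.27, and MCM2, a subunit of that helicase, by 0.92. The falls were E2F2 (-1.73), UHRF1 (-0.69), TYMS (-0.51) and PCNA (-0.41). In siBRMsiNS against libraries labelled siCHD9siNS, 4 replication genes were higher and 4 lower, where 17.3% of all tested genes were higher and 11.6% lower. E2F letters stand in 48.4% of the 31 replication gene windows with an entry, against 8.55% of tested genes. With cultures under 1% ribosomal share only, the replication genes counted 10 higher and 6 lower, and the mitotic genes 9 higher and 0 lower. The replication-dependent histones, whose messages end in a stem-loop in place of a poly(A) tail, counted 2 higher and 1 lower of 18 (median -0.06). HIST2H2AC (1.01) and HIST1H2BJ (0.98) rose and HIST4H4 (-0.91) fell, the last not called under 1 alternative.

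The targets of p53, the stress-activated transcription factor that halts the cell cycle or starts apoptosis, moved the other way. Of 22 targets, 0 rose and 16 fell, with a median of -0.81, against 22.5% of all tested genes falling. SESN1, a stress-induced inhibitor of mTORC1, had 40.7 to 56.8 CPM in siBRMsiHic5 and 139 to 185 CPM in libraries labelled siCHD9siHic5, a fall of 1.70 ± 0.22 (edgeR, adjusted p = 1.2e-05). FAS, the death receptor, had 60.3 to 94.5 CPM in siBRMsiHic5 and 180 to 227 CPM in libraries labelled siCHD9siHic5, and siHic5siNS libraries held 60.8 to 101 CPM. ZMAT3, an RNA-binding zinc finger protein, fell by 1.70 and TP53INP1 by 1.41. FDXR, the mitochondrial ferredoxin reductase, averaged 106 CPM in siBRMsiHic5 and 393 CPM in libraries labelled siCHD9siHic5, and MDM2, the ubiquitin ligase that degrades p53, averaged 236 CPM and 474 CPM in the same order. CDKN1A, the cyclin-dependent kinase inhibitor p21, differed by -0.53 ± 0.37 and was not called (edgeR, adjusted p = 0.24). With cultures under 1% ribosomal share only, 12 targets fell and 0 rose.

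**Figure D3:**
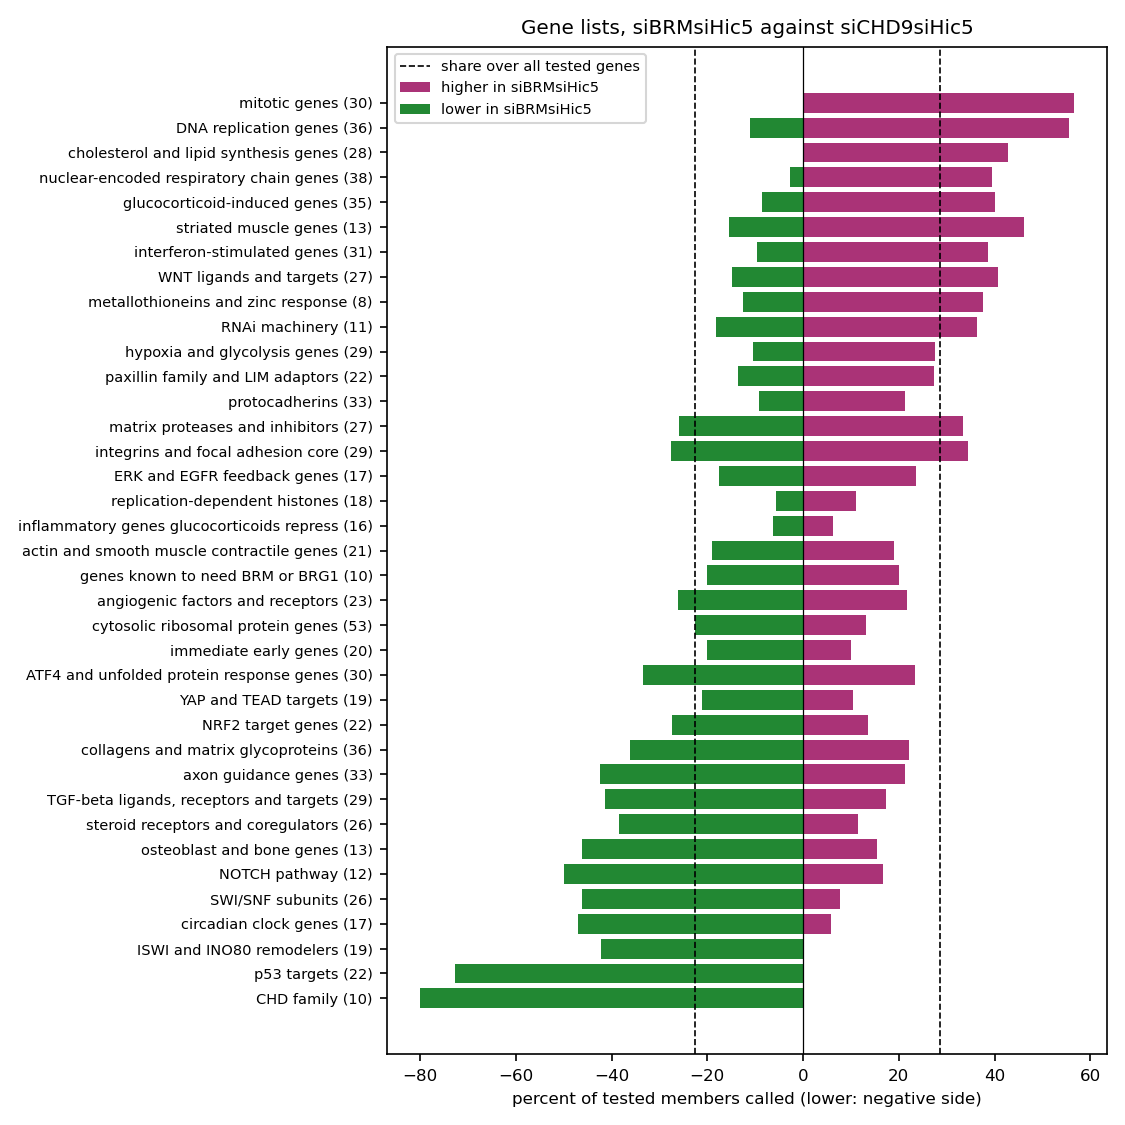
Share of the tested members of each gene list (numbers in brackets) called higher (right) or lower (left, negative side) in siBRMsiHic5 than in libraries labelled siCHD9siHic5, in percent; dashed lines mark 28.7% and 22.5%, the shares of all tested genes. The bars for p53 targets, the CHD family and the ISWI and INO80 remodelers run to the lower side alone. Those of mitotic and of cholesterol and lipid synthesis genes run to the higher side alone (with TMM factors or DESeq2, 1 mitotic gene is lower). After correction for length and GC, 1 of the ISWI and INO80 remodelers is higher. The CHD family includes CHD9.

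Of 26 SWI/SNF subunits 2 rose and 12 fell (median -0.29), where 28.7% of all tested genes rose and 22.5% fell. The falls include the siRNA target SMARCA2 and the accessory subunits SMARCD1 (-1.06), PHF10 (-1.01) and BCL7C (-0.87). In the CHD family 0 of 10 rose and 8 fell (median -0.40), with CHD9 itself among the 8. CHD2 had 51.4 to 67.1 CPM in siBRMsiHic5 and 150 to 205 CPM in libraries labelled siCHD9siHic5, and CHD7 (-0.85) and CHD6 (-0.61) fell as well. Of 19 ISWI and INO80 type remodelers 0 rose and 8 fell (median -0.32), with ATRX at -1.08, SRCAP at -0.91 and BPTF at -0.79. The median transcript of the CHD family is 8920 bases and that of the ISWI and INO80 genes 6100 bases, in the quintile of longest transcripts, whose median difference was itself below 0. After correction for length and GC the CHD family counted 0 higher and 8 lower, and the ISWI and INO80 remodelers 1 higher and 9 lower.

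Of 26 steroid receptors and coregulators 3 rose and 10 fell (median -0.29), where 28.7% of all tested genes rose and 22.5% fell. The coactivators NCOA1 (-1.20) and NCOA2 (-0.90) and the acetyltransferase CREBBP (-0.69) fell, and the Mediator subunit MED1 rose by 0.92. Of 10 genes known to need BRM or BRG1, 2 rose and 2 fell (median -0.28). SPARC (0.71), TIMP3 (0.63), CEACAM1 (-1.67) and LGALS3BP (-0.43) were the 4, and each lost its call under 1 to 3 of 18 alternatives. Among 35 glucocorticoid-induced genes, counted over vehicle and dex together, 14 rose and 3 fell (median 0.31). DUSP1, a phosphatase that shuts off MAP kinases, averaged 143 CPM in siBRMsiHic5 and 45.6 CPM in libraries labelled siCHD9siHic5, and RGS2, a brake on G-protein signals, had 10.6 to 17.6 CPM and 5.40 to 9.35 CPM in the same order. SCNN1A of the epithelial sodium channel rose by 1.37 and FAM107A by 2.85, while DDIT4, an inhibitor of mTORC1, fell by 1.41. FKBP5 (-0.37), PER1 (-0.26), TSC22D3 (0.31) and KLF9 (-0.02), widely used GR targets, did not pass the test. Of 16 inflammatory genes that glucocorticoids repress, 1 rose (MMP1, 2.91) and 1 fell (IL1A, -1.49, not called under 6 of 18 alternatives). MMP1 was low, at 1.75 CPM in 1 vehicle library of siBRMsiHic5 and 0.136 to 0.448 CPM in the other 5, against 0 to 0.124 CPM in libraries labelled siCHD9siHic5.

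Immediate early genes counted 2 higher and 4 lower of 20 (median -0.48), where 28.7% of all tested genes rose and 22.5% fell. EGR1 averaged 50.4 ± 12.2 CPM in siBRMsiHic5 and 271 ± 109 CPM in libraries labelled siCHD9siHic5, and JUNB (-2.69) fell while JUND (1.08) rose, both with an adjusted p above 0.05 when cultures over 1% ribosomal share were left out (edgeR, 0.085 and 0.092). ERK and EGFR feedback genes counted 4 higher and 3 lower of 17 (median -0.06), with the receptor EGFR at -1.22, the transcription factor ETV4 at 1.29, LRIG1 at 0.57 and the ligand AREG at 1.55 (adjusted p = 0.057 by edgeR when cultures over 1% ribosomal share were left out).

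Calls in both directions within the matrix and adhesion lists are not particular to them, since 28.7% of all tested genes rose and 22.5% fell. FN1, fibronectin, averaged 997 ± 212 CPM in siBRMsiHic5 and 3739 ± 1661 CPM in libraries labelled siCHD9siHic5, against 3797 to 7118 CPM in siHic5siNS libraries, which overlapped those labelled siCHD9siHic5. COL6A1, a collagen VI chain, had 123 to 166 CPM in siBRMsiHic5 and 596 to 965 CPM in libraries labelled siCHD9siHic5, and COL6A2 fell by 1.58 while COL16A1 rose by 0.97. The full list of collagens and matrix glycoproteins counted 8 higher and 13 lower of 36 (median -0.11). These collagens and matrix glycoproteins counted 8 higher and 8 lower after correction for length and GC, and 7 higher and 5 lower with cultures under 1% ribosomal share only. Matrix proteases and inhibitors counted 9 higher and 7 lower of 27 (median 0.29), with the protease inhibitor SERPINE2 at 35.6 to 66.2 CPM in siBRMsiHic5 and 236 to 408 CPM in libraries labelled siCHD9siHic5. PLAT (1.27) and PLAUR (1.67), the tissue plasminogen activator and the urokinase receptor, and the membrane protease MMP15 (1.53) rose. Integrins and focal adhesion core genes counted 10 higher and 8 lower of 29 (median 0.04), with ITGB4 (1.47), ITGA5 (1.06) and TLN2 (0.81) up and ITGA3 (-0.83) down. The paxillin family and LIM adaptors, to which Hic-5 belongs, counted 6 higher and 3 lower of 22 (median -0.03). PDLIM1, an actin-associated PDZ-LIM protein, had 16.3 to 30.0 CPM in siBRMsiHic5 and 0.318 to 1.81 CPM in libraries labelled siCHD9siHic5, a rise of 4.36 ± 0.40 (edgeR, adjusted p = 5.4e-07), against 2.78 to 6.16 CPM in siHic5siNS. CSRP1 (1.75) and LIMD1 (0.63) rose and LIMS1 (-0.68) fell. Actin and smooth muscle contractile genes counted 4 higher and 4 lower of 21 (median 0.03), with TPM1 (1.37) and CNN1 (2.23) up and CNN2 (-1.02) and ACTA2 (-0.87) down, and striated muscle genes 6 higher and 2 lower of 13 (median 0.55), with MYL1 (2.77) up and MYH3 (-1.06) down. The median striated muscle transcript is 1330 bases, in the quintile of shortest transcripts, of which 33.9% rose and 14.9% fell. The medians of the actin and integrin lists take the other sign with TMM factors and with DESeq2. ACTA2 had an adjusted p of 0.090 without the cultures over 1% ribosomal share (edgeR).

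Signalling lists are likewise set against 28.7% of all tested genes rising and 22.5% falling, so calls in both directions are not particular to them. The shares among YAP and TEAD targets and among angiogenic factors and receptors were near or below these. Of 29 TGF-beta ligands, receptors and targets, 5 rose and 12 fell (median -0.25). INHBA, the activin A subunit, had 43.7 to 70 CPM in siBRMsiHic5 and 198 to 401 CPM in libraries labelled siCHD9siHic5. TGFB2 averaged 21.8 CPM and 63.1 CPM in the same order, and the receptor ACVR1 fell by 1.13. The co-receptor TGFBR3 had 20.1 to 30.4 CPM in siBRMsiHic5 and 3.58 to 5.55 CPM in libraries labelled siCHD9siHic5, and the inhibitor SMAD6 (2.67) and the ligand BMP4 (1.62) rose. WNT ligands and targets counted 11 higher and 4 lower of 27 (median 0.38), with WNT7B (2.72), the secreted antagonist SFRP1 (1.84), the receptor FZD1 (1.30) and the ligase RNF43 (2.90) up and the co-receptor LRP5 (-1.41) down. The NOTCH pathway counted 2 higher and 6 lower of 12 (median -0.615), with NOTCH2 (0.75) up and NOTCH1 (-1.36) and its target HES1 (-1.95) down. YAP and TEAD targets counted 2 higher and 4 lower of 19 (median -0.03). AXL, a receptor tyrosine kinase in this list, had 575 to 893 CPM in siBRMsiHic5 and 117 to 202 CPM in libraries labelled siCHD9siHic5. Osteoblast and bone genes counted 2 higher and 6 lower of 13 around a median of 0.04, whose sign turns with TMM factors, DESeq2 and the length and GC correction, with the matrix phosphoprotein SPP1 (3.67) up and alkaline phosphatase ALPL (-1.61) down. Angiogenic factors and receptors counted 5 higher and 6 lower of 23 (median -0.02), with ANGPT1 (1.42) up and the VEGF receptor KDR (-1.87) down. KDR stood at 1.16, 0.651 and 0.659 CPM with dex in siBRMsiHic5 and at 4.36, 2.25 and 4.47 CPM with dex in libraries labelled siCHD9siHic5. With vehicle it was at 0.21 to 0.37 CPM in siBRMsiHic5 and 0.195 to 0.342 CPM in libraries labelled siCHD9siHic5, which overlap. The difference of its dex responses was not called (edgeR with the replicate block, adjusted p = 0.66). With cultures under 1% ribosomal share only, angiogenic factors and receptors counted 7 higher and 3 lower, and osteoblast and bone genes 2 higher and 3 lower. For ALPL the adjusted p was 0.10 when cultures over 1% ribosomal share were left out (edgeR).

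Of 28 cholesterol and lipid synthesis genes 12 rose and 0 fell (median 0.59), where 28.7% of all tested genes rose and 22.5% fell. IDI1, the isopentenyl diphosphate isomerase, had 68.3 to 153 CPM in siBRMsiHic5 and 22.8 to 29.3 CPM in libraries labelled siCHD9siHic5, against 74.4 to 154 CPM in siHic5siNS. ACLY, which makes cytosolic acetyl-CoA, rose by 1.04. With cultures under 1% ribosomal share only, this list counted 4 higher and 1 lower with a median of -0.04, and EBP (1.37), a sterol isomerase, was no longer called. Nuclear-encoded respiratory chain genes counted 15 higher and 1 lower of 38 (median 0.23), among them UQCRQ (1.40), and hypoxia and glycolysis genes 8 higher and 3 lower of 29 (median 0.20), a share of rises near the 28.7% of all tested genes, among them ENO1 (1.12) and CA12 (2.25). The median transcript of the nuclear-encoded respiratory chain genes is 1460 bases, in the quintile of shortest transcripts, of which 33.9% rose with a median of 0.19, and after correction for length and GC the list counted 8 higher and 5 lower. Cytosolic ribosomal protein genes counted 7 higher and 12 lower of 53 (median -0.03), with RPL34 (1.91) and RPL32 (1.21) up, genes with many processed pseudogenes. The cytosolic ribosomal protein genes counted 4 higher and 24 lower after correction for length and GC, 7 and 19 with DESeq2, 11 and 20 with hormone as a covariate, and 13 and 6 with cultures under 1% ribosomal share only. ATF4 and unfolded protein response genes counted 7 higher and 10 lower of 30 (median -0.22), with the amino acid transporter subunits SLC7A5 (-1.77) and SLC3A2 (-1.04) down and ATF5 (1.41) and DNAJB9 (1.00) up. NRF2 targets counted 3 higher and 6 lower of 22 (median -0.09), with OSGIN1 (1.90) up and GCLC (-0.74) down, and the NRF2 target genes counted 3 higher and 3 lower with cultures under 1% ribosomal share only. Metallothioneins and zinc response genes counted 3 higher and 1 lower of 8 (median 0.29), with the close paralogs MT2A (0.76) and MT1E (1.05) up. Interferon-stimulated genes counted 12 higher and 3 lower of 31 (median 0.40). IFIT2, an antiviral RNA-binding protein, had 3.00 to 9.07 CPM in siBRMsiHic5 and 0.0932 to 0.854 CPM in libraries labelled siCHD9siHic5, against 11.3 to 15.1 CPM in siHic5siNS, and HERC6 (2.17), IFIT1 (1.86) and CMPK2 (2.90) rose while STAT2 (-0.66) fell.

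The same contrast was drawn with Hic-5 siRNA replaced by non-silencing siRNA, in 12 separate libraries. siBRMsiNS differed from the libraries labelled siCHD9siNS in 4396 genes (29%), 2631 higher (17.3%) and 1765 lower (11.6%), or 2289 higher and 2549 lower after correction for length and GC. Both contrasts called 3231 genes in the same direction, 1962 higher and 1269 lower, and 66 in opposite directions. The shared genes are 41.5% of the calls with Hic-5 siRNA and 73.5% of those without it. Across 15179 genes, which are not independent replicates, the 2 sets of log2 differences had a Pearson r of 0.781 and a Spearman rho of 0.711.

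**Figure D4:**
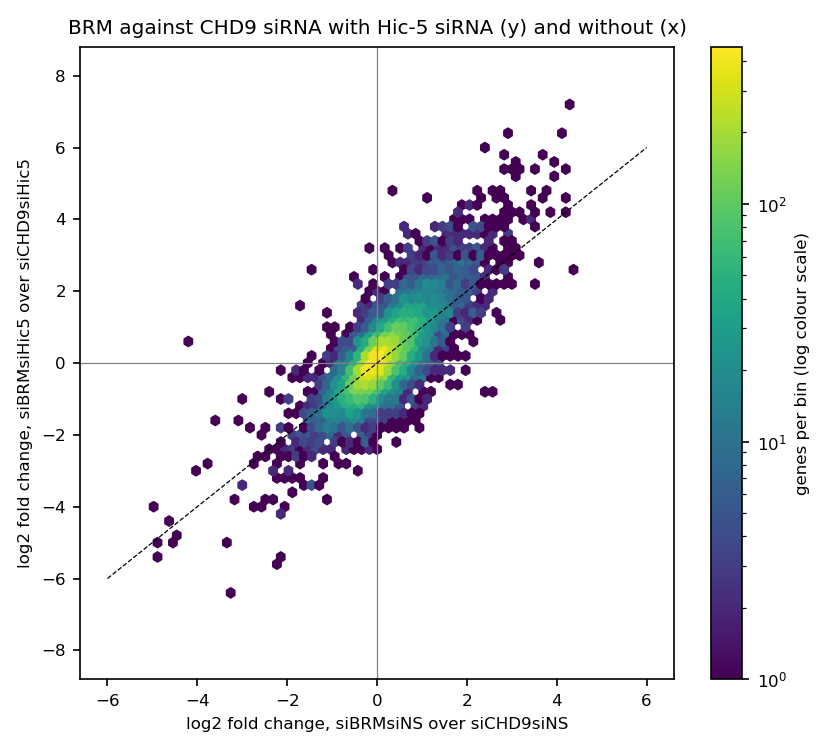
Log2 fold change of siBRMsiHic5 over libraries labelled siCHD9siHic5 (y axis) against that of siBRMsiNS over libraries labelled siCHD9siNS (x axis) for 15179 genes, with the number of genes per bin on a log colour scale and the line of equal change dashed. Most genes lie along one rising band (r = 0.781), with more spread on the y axis.

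The contrast with Hic-5 siRNA minus the contrast without it was called for 1603 genes (10.6%), 803 higher (5.29%) and 800 lower (5.27%; edgeR on culture sums). ZNF469 fell by 5.49 with Hic-5 siRNA and by 2.21 without it, a difference of -3.28 ± 0.39 (edgeR, adjusted p = 0.00052). SEC16B, of endoplasmic reticulum exit sites, had 0.56 to 2.98 CPM in siBRMsiHic5 and 0.124 to 0.375 CPM in libraries labelled siCHD9siHic5, whereas siBRMsiNS libraries held 0.793 to 1.92 CPM and those labelled siCHD9siNS 2.12 to 3.75 CPM. The transcriptional repressor ZBTB20 gave -2.32, and CHD9 itself -1.29. The p53 targets gave 0 calls of 22 in this difference, which does not show that they moved equally, and counted 15 falls and 0 rises without Hic-5 siRNA (4 falls with cultures under 1% ribosomal share only), where 11.6% of all tested genes fell. Of the replication-dependent histones, 11 of 18 were called lower and 0 higher, where 5.27% of all tested genes were lower. In siBRMsiNS 16 of 18 were higher than in libraries labelled siCHD9siNS, where 17.3% of all tested genes were higher. HIST1H2BJ had 4.18 to 8.62 CPM in siBRMsiNS and 0.938 to 1.78 CPM in libraries labelled siCHD9siNS. With cultures under 1% ribosomal share only, 3 of the 18 histones were called in the difference, and without replicate 1 of siCHD9siNS 6 were. Without siCHD9siHic5 replicate 1 the difference held 750 genes, without siCHD9siNS replicate 1 or 2 904 or 1017, and without siBRMsiNS replicate 3 2456.

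Each hormone treatment was also tested alone. With vehicle 7589 genes were called (50%) and with dex 7397 (48.7%), from libraries paired by condition and replicate number. The dex response itself, tested within cultures, was called in siBRMsiHic5 for 637 genes higher (4.2%) and 267 lower (1.76%), 5.96% in all, and in libraries labelled siCHD9siHic5 for 490 higher (3.23%) and 229 lower (1.51%), 4.74% in all. The difference of the 2 dex responses was called for 0 genes by edgeR, with 108 at an unadjusted p under 0.05, and for 0 by DESeq2. Neither fit uses the pairing of vehicle and dex libraries, so the lack of calls does not show equal responses. With the replicate block, which compares each dex library with the vehicle library of its culture, 6 genes (0.0395%) were called, 5 higher (0.0329%) and 1 lower (0.00659%), with 1114 at an unadjusted p under 0.05. SLCO2A1, a prostaglandin transporter, had 41.4, 15.8 and 11.8 CPM with dex and 6.58, 4.89 and 2.54 CPM with vehicle in siBRMsiHic5. In libraries labelled siCHD9siHic5 it had 65.6, 25.4 and 39.9 CPM with dex and 55.8, 23.3 and 29.3 CPM with vehicle. Its dex response was 2.20 ± 0.25 and 0.27 ± 0.21 in the same order of states, a difference of 1.93 ± 0.32 (edgeR with the block, adjusted p = 0.031). CCND3, a G1 cyclin, had a dex response of 0.41 ± 0.07 in siBRMsiHic5 and 1.22 ± 0.08 in libraries labelled siCHD9siHic5, a difference of -0.81 ± 0.11 (edgeR with the block, adjusted p = 0.0069). The basement membrane gene NID1 had a dex response of 0.17 in siBRMsiHic5 and -0.49 in libraries labelled siCHD9siHic5. The formin gene DAAM2 had 0.80 and -0.26 in the same order, the metalloprotease gene ADAMTS7 1.54 and 0.43, and the kinesin gene KIF13B 1.13 and 0.47.

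**Figure D5:**
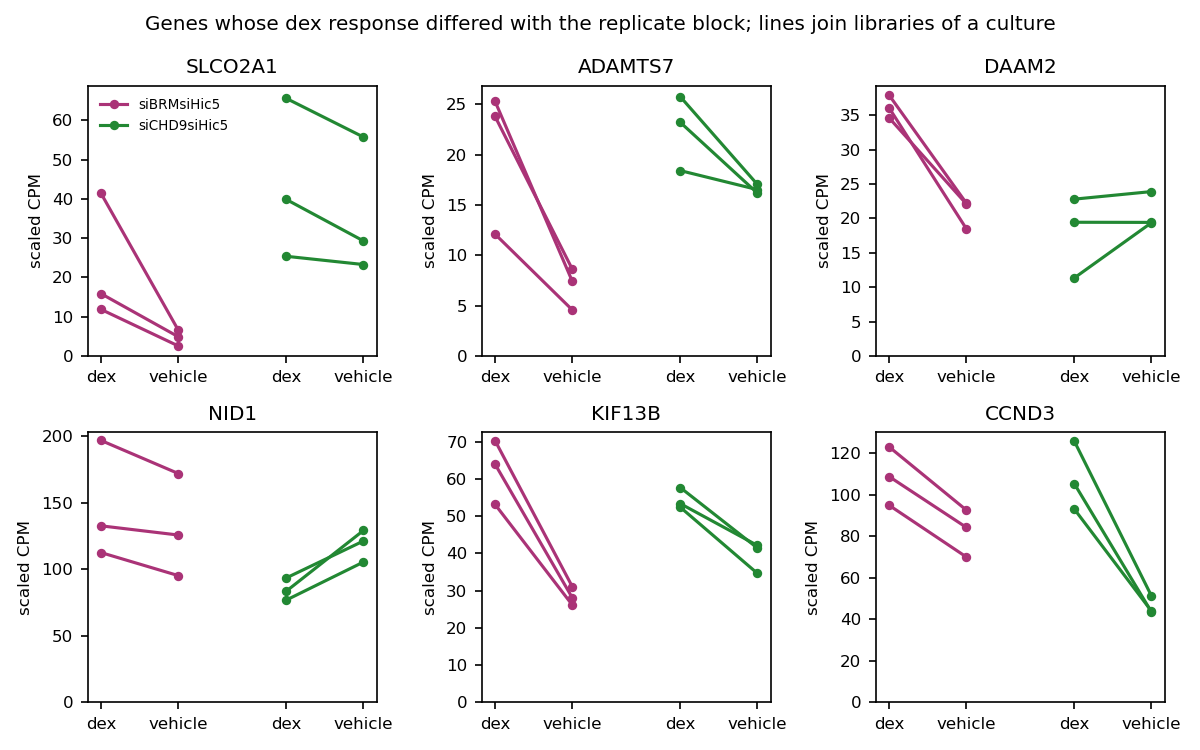
Scaled CPM (y axes) with dex and with vehicle in siBRMsiHic5 and in libraries labelled siCHD9siHic5 (x axes) for the 6 genes whose dex responses differed with the replicate block; lines join the libraries of a culture. Dex is at the left of each line and vehicle at the right. On the log2 scale the dex response of SLCO2A1 was 2.20 in siBRMsiHic5 and 0.27 in the libraries labelled siCHD9siHic5. That of CCND3 was smaller in siBRMsiHic5 (log2 difference -0.81).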

How the data were processed

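Total RNA of U2OS cells was sequenced in 36 libraries, 12 of which make up the comparison. Per the submitters' processing notes reads were mapped with TopHat2 2.1.1 to GRCh38 and edgeR was used. No source used here names the read counter, its strand setting or the annotation. The authors deposited raw counts for 15186 genes, whole numbers that sum to 27.44 to 47.15 M per library. Testing needed a scaled CPM over 1 in 3 or more libraries (15179 genes passed). Counts of the vehicle and dex libraries of each of 18 cultures were summed, because these pairs deviate together (residual correlations 0.458 to 0.922). The sums were fitted with edgeR 4.0.16 quasi-likelihood tests in R 4.3.3, with upper-quartile factors and all 6 conditions in 1 fit (12 residual degrees of freedom). Single treatments were compared among the 36 libraries, and dex responses with a replicate block for each culture. Levels are CPM with the same factors, and SD is over 3 cultures. Benjamini-Hochberg adjustment covered every tested gene, with a threshold of 0.05. Replicates are cultures of 1 line, and p-values from the culture sums measure the spread between them. The fit of 36 libraries treated vehicle and dex libraries of a culture as independent (24 residual degrees of freedom). With the replicate block, p-values measure the spread within cultures. No 2 libraries of a group were copies (chi-square over degrees of freedom at least 10.4).

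The members, the gene lists and the tests were chosen with earlier results of these data known. The rule for naming takes the siRNA targets with SMARCA4 and NR3C1, the 12 largest changes each way without overlap at a mean CPM of at least 1, from every list at most 4 called genes ranked by p, and the 6 largest changes each way of both difference tests. Other genes named were chosen after their values were seen (RNA28S5, CDH5, ESAM, MKI67, PLK1, CDC6, MCM2, UHRF1, TYMS, PCNA, FDXR, MDM2, CDKN1A, DUSP1, FKBP5, PER1, TSC22D3, KLF9, TGFB2, BMP4, RNF43, STAT2). Some genes are not reported here. The mitochondrially encoded genes had no tested member. Promoters came from RefSeq (GRCh38.p14). Fits were tested on simulated data. Alternatives were TMM or no factors, other filters, only the conditions compared, the replicate block, each culture left out, hormone as a covariate, limma 3.58.1, length and GC offsets, a 2-fold minimum and DESeq2 1.42.0. Leaving out the ribosomal RNA row, or cultures over 1% ribosomal share, was chosen after seeing the data.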

Additional observations from a re-analysis of the deposited data

Results flagged for a closer look

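The difference between the contrasts with Hic-5 siRNA and without it was tested directly and called for 1603 genes, and the 12 named by rule are those below with their log2 differences (edgeR on culture sums). They were higher for PRR9 (4.51), SEC16B (4.02), PTGES (3.35), DIRC3 (3.01), the endothelin gene EDN2 (2.99) and CAPN6 (2.89). They were lower for ZNF469 (-3.28), the collagen gene COL24A1 (-2.87), the RNA-binding protein gene CELF6 (-2.66), MUC19 (-2.58), ZBTB20 (-2.32) and HIST1H2BD (-2.26). Over 24 alternatives each, the call was lost in 9 for EDN2, 8 for MUC19, 6 for each of CAPN6, DIRC3 and PTGES and 1 for each of CELF6 and HIST1H2BD. PRR9 stood at 29.1 CPM in 1 vehicle library of siBRMsiHic5 and at 3.37 to 7.51 CPM in the other 5.

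The dex response differed between the states, with the replicate block, for SLCO2A1 (1.93), ADAMTS7 (1.11), DAAM2 (1.05), NID1 (0.66), KIF13B (0.65) and CCND3 (-0.81), as log2 differences. Without the block, in a fit that leaves the pairing of vehicle and dex libraries unused, the adjusted p of all 6 was 1.00 (edgeR).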

How the results depend on the processing

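Of 136 values of the 8 main counts under other settings, 120 stayed within 1.5 times the main count, or at 0 where it was 0. The same held for 13 of 15 chosen after seeing the data. The values at 0 all belong to the difference of dex responses, where no ratio exists. Of 184 named genes followed between the double states and 12 followed in the difference with minus without Hic-5 siRNA, 0 changed sign while called. The differences of dex responses, and the genes chosen after their values were seen, were not followed in this way. A 2-fold minimum left 2848 genes for siBRMsiHic5 against libraries labelled siCHD9siHic5, 2896 with vehicle, 2729 with dex, 1254 for siBRMsiNS against libraries labelled siCHD9siNS, 550 for the first of these contrasts minus the fourth, 2372 for siBRMsiHic5 against siHic5siNS and 2667 for libraries labelled siCHD9siHic5 against siHic5siNS. The replicate block moved the difference of dex responses to 6 genes, where the vehicle and dex libraries of a culture are the pairs, and gave 8318 genes between the states; across states same-numbered cultures correlated at -0.216 to 0.0676, so the number is no pair there. Same-numbered cultures labelled siCHD9siHic5 and siHic5siNS correlated at 0.23 to 0.546, all 3 best with their own number, and the block gave 8035 genes between them in place of 7495. Leaving out a culture gave 6487 to 7201 genes between the double states, 2708 to 4680 between the single ones (fewest without siCHD9siNS replicate 1) and 750 to 2456 in their difference. The single contrast held 2230 genes with only its conditions fitted, 7157 with hormone as a covariate and 2474 with cultures under 1% ribosomal share; the difference held 4310 and 939 under the last 2 settings, the last of which leaves 1 culture each of siBRMsiHic5 and siBRMsiNS. With cultures under 1% ribosomal share the vehicle and dex comparisons of the double states held 6297 and 6162 genes. The cause was not tested. Of 3208 values for single genes 47 lost and 8 gained the call, and of 392 chosen after seeing the data 17 lost it. Low counts limit the precision for genes such as PTGES, with 8 counts in the libraries labelled siCHD9siHic5.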

Other observations

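Of 33 protocadherins, cell adhesion genes with clustered promoters, 7 rose and 3 fell in siBRMsiHic5 (median 0.23), with PCDHAC1 (1.46) and PCDHA4 (1.23) up and PCDH17 (-2.89) and PCDHGC3 (-1.61) down; genes of a cluster share exons, so their reads can be split. Over all tested genes 28.7% rose and 22.5% fell. Of 33 axon guidance genes 7 rose and 14 fell (median -0.40), with the guidance cue NTN1 (-1.44) and the semaphorin receptors PLXNA1 (-0.99), PLXNA3 (-1.70) and PLXNB1 (-1.63) down. Their median transcript is 6390 bases and that of the RNAi machinery 7120 bases. Both lie in the quintile of longest transcripts, of which 21.9% rose and 33.1% fell. Of 17 circadian clock genes 1 rose and 8 fell (median -0.39), among them the clock repressors PER2 (-1.67), PER3 (-0.71) and NR1D1 (-1.16) and the activator ARNTL (-0.65). Of 11 genes of the RNAi machinery 4 rose and 2 fell (median 0.08), with the Argonaute genes AGO4 (-1.47) and AGO1 (-0.75) down and the Dicer partners PRKRA (0.60) and TARBP2 (0.53) up.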
